A study of Danio rerio with 7 samples.

Results

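The subject is the set of H3K27ac domains in bud-stage zebrafish embryos that overlapped a domain of a second histone mark, H3K4me3. Members were chosen by their coordinates alone: each deposited H3K27ac domain that shared at least 1 bp with a deposited H3K4me3 domain. There were 1126 such domains (called overlapping domains here) among 4599 H3K27ac domains, and the 3473 others served for comparison. On the other side of the overlap stood 1073 of 19401 H3K4me3 domains (5.53%), called partners here. Because the positions of both marks chose the members, everything about how the marks sit to each other is a description. The Cdx4 and Sall4 peak lists had no part in the choice.

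H3K4me3, trimethylated lysine on the tail of histone H3, is laid down around transcription start sites and marks promoters. H3K27ac, acetylated lysine further along the same tail, is found at active enhancers and at active promoters, so a domain with both marks is usually read as an active promoter and a domain with H3K27ac alone as a candidate enhancer. Both marks sit on nucleosomes beside the start site, while transcription factors bind the more open DNA between nucleosomes. Cdx4, a caudal-family homeodomain factor, patterns the posterior body and the early blood-forming mesoderm of zebrafish. Sall4, a spalt-family zinc finger factor, is known for its role in pluripotent and early embryonic cells.

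All 4 ChIP-seq libraries (chromatin immunoprecipitation and sequencing) were used, 1 per target, from whole embryos of the Tu strain at the end of gastrulation. The H3K27ac and H3K4me3 libraries used antibodies to the modified histone, and the Cdx4 and Sall4 libraries used an anti-Myc antibody against a tagged factor. The labels' protocol names mRNA injection at the 1-cell stage as well as uninjected embryos without tying either to a library. The peak and mark libraries may therefore come from differently treated embryos. For every library the labels give 500 collected embryos, crosslinked in 1.1% formaldehyde for 15 min. The titles of the Cdx4 and Sall4 libraries name Myc-tagged factors, so all peaks come from libraries directed at tagged protein. Whether each peak is a site of that protein was not tested. Binding of the embryos' own untagged Cdx4 and Sall4 was not measured, and the shares and densities below do not describe it. With 1 library per target no value has a spread between embryos, and sequencing depth is unknown. All intervals below are 95% intervals for counting error over domains, peaks or bases of these lists, which are not independent replicates. In whole embryos, 2 marks on the same DNA in 1 cell and the marks in different cells cannot be told apart.

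Most overlapping domains were nested within the H3K4me3 domain. In 714 of 1126 (63.4%, exact binomial interval 60.5 to 66.2%) the H3K27ac domain lay inside a longer H3K4me3 domain, and in 35 (3.11%) both marks had the same start and end. Another 288 (25.6%, 23.1 to 28.2%) crossed 1 end of the H3K4me3 domain. The reverse nesting, with H3K4me3 wholly inside H3K27ac, was found in 81 (7.19%, 5.75 to 8.86%). Only 8 had a more involved layout, 2 of them bridging a pair of H3K4me3 domains and 6 with other combinations. H3K4me3 therefore covered the whole of 749 overlapping domains (66.5%, 63.7 to 69.3%) and at least 50% of the length of 991 (88.0%).

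Where the acetylated domain ran past H3K4me3, the overhang was short. In domains that crossed an end, H3K4me3 covered a median of 66.6% of the length (quartiles 49.5 and 80.0%), leaving a median of 200 bp outside (quartiles 100 and 300 bp, highest 2500 bp). They ran past the upper end in 162 of 288 cases (56.3%, exact interval 50.3 to 62.1%) and past the lower end in the others, in the direction of the assembly. In domains that held H3K4me3 within them, the uncovered length also had a median of 200 bp (quartiles 100 and 400 bp). In all, the overlapping domains covered 0.645 Mb, of which 0.529 Mb (82.0%) carried both marks.

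**Figure D1:**
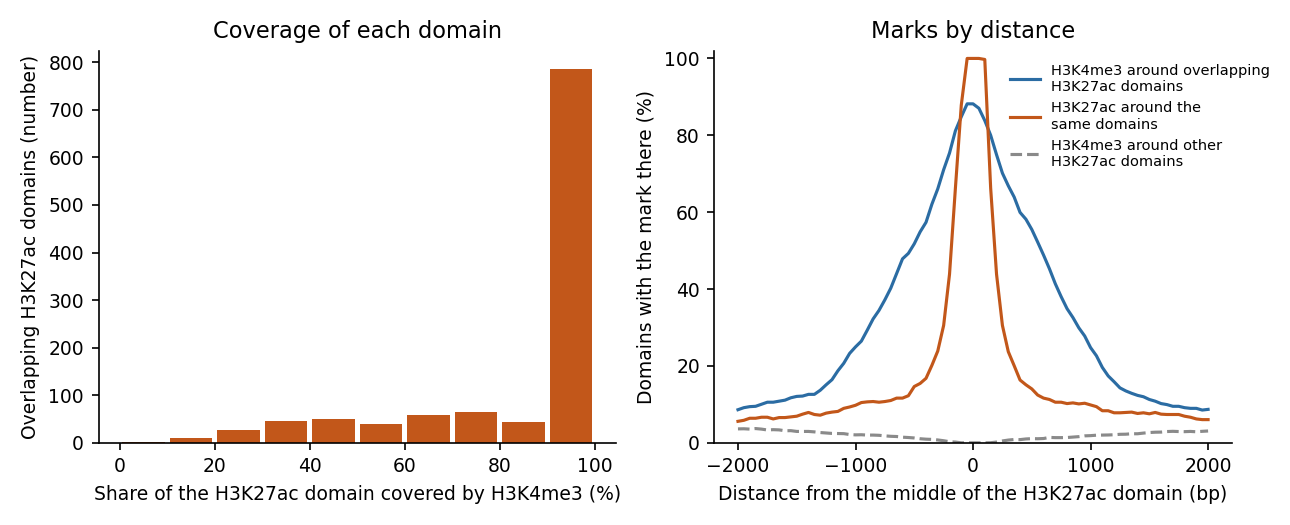
Left, number of overlapping H3K27ac domains (vertical axis) by the share of the domain that H3K4me3 covered (horizontal axis, %, bars of 10 points). Right, percent of domains with H3K4me3 or H3K27ac (vertical axis) by distance in bp from the middle of the H3K27ac domain (horizontal axis). The last bar holds 785 of 1126 domains, and H3K4me3 around overlapping domains (blue) reaches farther out than H3K27ac (orange).

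The profile by distance shows the same nesting. At the middle of the overlapping domains 88.2% were in an H3K4me3 domain, and 1000 bp away 25.0% on the lower and 24.8% on the upper side still were. H3K27ac at those distances was at 9.77% and 9.86%. The other H3K27ac domains have no H3K4me3 overlap by the rule that chose the groups, which also lowers H3K4me3 close to them. Around them H3K4me3 was at 2.07% and 1.87% at the same distances.

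Nested domains filled a minor part of their H3K4me3 partner and lay at its ends as well as in its middle. Their partners had a median width of 1399 bp (quartiles 1099 and 1799 bp), and the nested domain filled a median of 30.7% of it (quartiles 22.2 and 43.7%). The nearer end of H3K4me3 lay a median of 200 bp away and the farther end 700 bp. The nested domain was flush with an end in 204 of 714 cases (28.6%) and within 100 bp of one in 345 (48.3%), and it lay over 500 bp from both ends in 78 (10.9%). Domain edges fall on a 100 bp grid, with starts at multiples of 100 in 99.8% of H3K27ac and 98.8% of H3K4me3 domains. Equal use of every 100 bp step would put 24.8% flush with an end and 45.6% within 100 bp of one. The exact intervals were 25.3 to 32.0% for the flush share and 44.6 to 52.1% for the share within 100 bp. The positions of both marks chose these domains, so no departure from the references is read from these values. No such reference was computed for the middle.

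**Figure D2:**
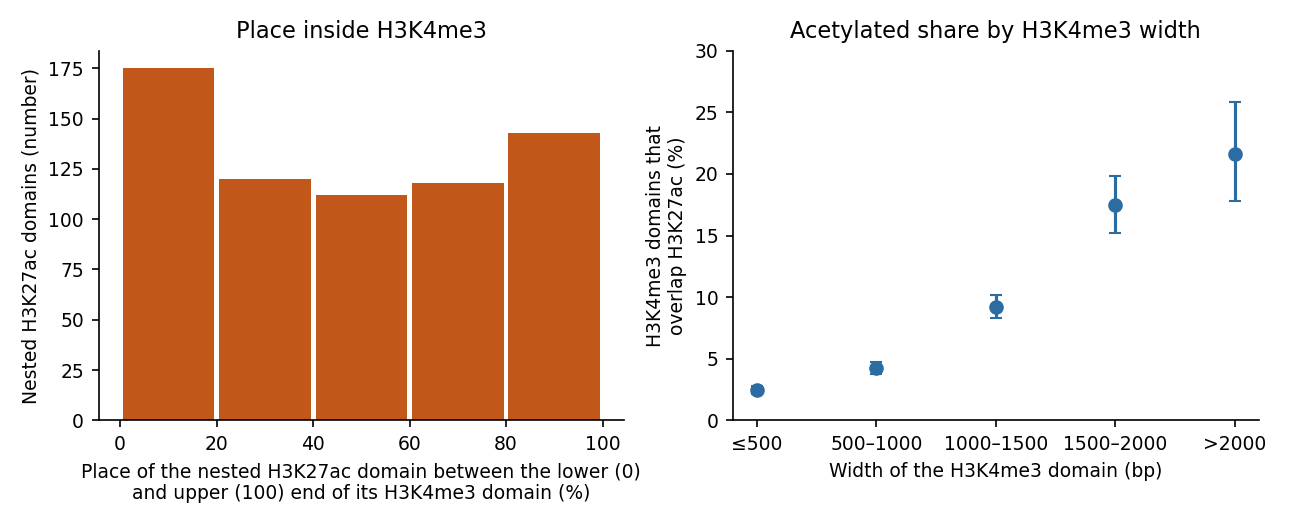
Left, number of nested H3K27ac domains (vertical axis) by their place between the lower and upper end of the H3K4me3 partner (horizontal axis, %), for the 668 with at least 300 bp of room. The outer bars hold 47.6% together, and equal use of the 100 bp steps would give 46.0%. Right, percent of H3K4me3 domains that overlapped H3K27ac (vertical axis, points with exact 95% intervals) by H3K4me3 width in bp, rising from 2.43% to 21.6%.

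The partners were wide H3K4me3 domains. Their median width was 1186 bp (quartiles 699 and 1599 bp), against 599 bp (370 and 999 bp) for the other 18328 H3K4me3 domains. Of H3K4me3 domains up to 500 bp wide, 195 of 8033 (2.43%) overlapped H3K27ac. The share was 4.24% from over 500 to 1000 bp, 9.21% up to 1500 bp, 17.5% up to 2000 bp and 21.6% (91 of 421, exact interval 17.8 to 25.9%) above that. A longer domain has more room for an overlap, so width and overlap are tied by construction. By the authors' deposited score, which only ranks domains within a list, the median partner stood at percentile 70.5 of the H3K4me3 list and the median of other H3K4me3 domains at percentile 48.8.

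The overlapping domains were themselves somewhat wider than other H3K27ac domains. Their median width was 399 bp (quartiles 299 and 599 bp), against 299 bp (299 and 499 bp). Widths over 1000 bp were found in 128 (11.4%) and 175 (5.04%) respectively. Seen from the width, 17.3% of H3K27ac domains up to 300 bp, 26.8% from over 300 to 500 bp, 35.8% from over 500 to 1000 bp and 42.2% of wider ones overlapped H3K4me3. The median overlapping domain stood at percentile 60.3 of the H3K27ac list by score and the median of the others at percentile 47.1. A deposited score of 0 was held by 33 overlapping domains (2.93%) and 125 others (3.60%).

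Nearly all overlaps were between 1 domain of each mark. Of the partners, 1016 held 1 overlapping domain, 52 held 2 and 5 held 3, while 9 overlapping domains touched 2 H3K4me3 domains. Partners with 2 or 3 acetylated domains had a median width of 1799 bp, and in 52 of these 57 (91.2%, exact interval 80.7 to 97.1%) the acetylated domains lay on both sides of the middle of H3K4me3. Separate domains on 1 partner can fall on both sides of its middle by geometry alone, and no reference share was computed. The smallest gap between them had quartiles of 201 and 401 bp and was never under 200 bp. Whether that limit comes from the calling of domains was not tested. An example is the partner on chromosome 25 at 35607400 to 35610198. There 3 acetylated domains stood 200 and 201 bp apart inside H3K4me3 of 2799 bp. The other 4 partners with 3 were chr11:844100-846398, chr24:8519800-8522598, chr21:4831100-4832898 and chr15:19837800-19840798.

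The 1 bp rule in practice separated domains by a single step of the grid. The smallest shared length was 99 bp, and 44 domains shared that little. Examples just inside the limit, each sharing 99 bp, were on chromosome 1 at 43562200 to 43562498 and on chromosome 12 at 11275000 to 11275298. Just outside it, 33 other H3K27ac domains abutted an H3K4me3 domain or left 1 bp between them, such as those on chromosome 18 at 19473000 to 19473199, on chromosome 20 at 416400 to 416698 and on chromosome 3 at 46040100 to 46040498. Flanking acetylation beyond that was counted among the other H3K27ac domains, and no background share was computed for it. Of the other H3K27ac domains, 148 (4.26%) lay within 500 bp of H3K4me3, 250 (7.20%) within 1000 bp and 895 (25.8%) within 5000 bp, and 181 (5.21%) were on a sequence with no H3K4me3 domain.

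The largest overlapping domains included ones with H3K4me3 at 1 end and long acetylated stretches beyond it. The widest, 4799 bp on chromosome 21 at 39194300 to 39199098, also had the highest H3K27ac score of the overlapping domains (2925). It ended at the same base as its H3K4me3 domain, which began at 39196100 and covered 62.5% of it. On chromosome 14 at 16153000 to 16156898 an acetylated domain of 3899 bp had H3K4me3 over its lower 1399 bp alone. On chromosome 11 at 7742000 to 7745498 H3K4me3 lay over the upper 1499 of 3499 bp, and on chromosome 20 at 29745300 to 29748498 it covered 71.9% of 3199 bp. None of these 4 held more than 1 peak of Cdx4 or Sall4. The domain on chromosome 21 and that on chromosome 20 held 0 of either factor.

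At other large sites H3K4me3 covered most or all of the acetylated domain. On chromosome 14 at 40709100 to 40711798 both marks had the same ends over 2699 bp, with an H3K27ac score of 1853 and an H3K4me3 score of 189, and the domain held 1 Cdx4 peak. On chromosome 16 at 14764500 to 14767098 an acetylated domain of 2599 bp lay inside H3K4me3 of 3999 bp and held 1 Sall4 peak. On chromosome 9 at 50028800 to 50031598 H3K4me3 covered 89.3% of 2799 bp, the H3K4me3 domain had the highest score of its list (3318), and 1 Cdx4 peak was inside. On chromosome 25 at 36206600 to 36209198 an H3K4me3 domain of 5299 bp covered 92.3% of an acetylated domain of 2599 bp with no peak of either factor. No gene was assigned to any of these sites, since no annotation of the assembly of the lists (Zv8) was used here.

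Peaks of Cdx4 and Sall4 were less frequent in overlapping domains than in other H3K27ac domains. A Cdx4 peak overlapped 234 of 1126 overlapping domains (20.8%, exact interval 18.4 to 23.3%) and 1180 of 3473 others (34.0%, 32.4 to 35.6%), where 30.7% of all H3K27ac domains held one. A Sall4 peak overlapped 152 (13.5%, 11.6 to 15.6%) and 942 (27.1%, 25.7 to 28.6%), where 23.8% of all did. The Cdx4 shares differed by -13.2 percentage points (Newcombe score interval -16.0 to -10.3), and the Sall4 shares by -13.6 points (-16.0 to -11.1). Neither factor had a peak in 836 overlapping domains (74.2%) and 2019 others (58.1%).

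The difference depended on the width of the acetylated domain. Up to 300 bp, 12.9% of overlapping and 28.0% of other domains held a Cdx4 peak, a difference of -15.1 points (-18.8 to -10.8). Between 300 and 500 bp the shares were 21.9% and 46.8%, a difference of -24.9 points (-29.7 to -19.7). Between 500 and 1000 bp they were 25.5% and 32.8%, and the interval of the difference included 0 (-7.35 points, -14.6 to 0.304). Above 1000 bp the order was the opposite: 42 of 128 overlapping domains (32.8%) and 32 of 175 others (18.3%) held Cdx4, a difference of 14.5 points (4.65 to 24.4). The Cdx4 share was thus higher in each wider group of overlapping domains, while among the others it was highest between 300 and 500 bp. A wider domain has more room for a peak, and peaks per kb were not compared between the width groups.

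Part of the excess among wide domains lay in a few places. Of all 128 overlapping domains over 1000 bp wide, 33 lay in windows of 100 kb that held 4 or more overlapping domains. Of the 42 wide ones with Cdx4, 16 lay in these windows. Without those windows the shares were 27.4% and 17.0%, and the interval of the difference only just excluded 0 (10.4 points, 0.0529 to 21.3). Without chromosomes 23 and 25 the difference was 12.6 points (2.42 to 23.3).

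For Sall4 the lower share of overlapping domains held up to 1000 bp. The shares were 8.68% and 19.7% up to 300 bp, a difference of -11.0 points (-14.1 to -7.33). They were 14.2% and 39.0% from over 300 to 500 bp (-24.8 points, -29.0 to -20.1) and 15.3% and 31.5% from over 500 to 1000 bp (-16.2 points, -22.6 to -9.26). Above 1000 bp they were 22.7% and 20.0%, with a difference whose interval included 0 (2.66 points, -6.49 to 12.2). Averaged over the width groups with the weights of the overlapping domains, Cdx4 differed by -13.7 points (-16.6 to -10.9) and Sall4 by -15.4 points (-18.0 to -12.8). Both means join groups of opposite sign, though the interval of the positive Sall4 difference included 0.

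**Figure D3:**
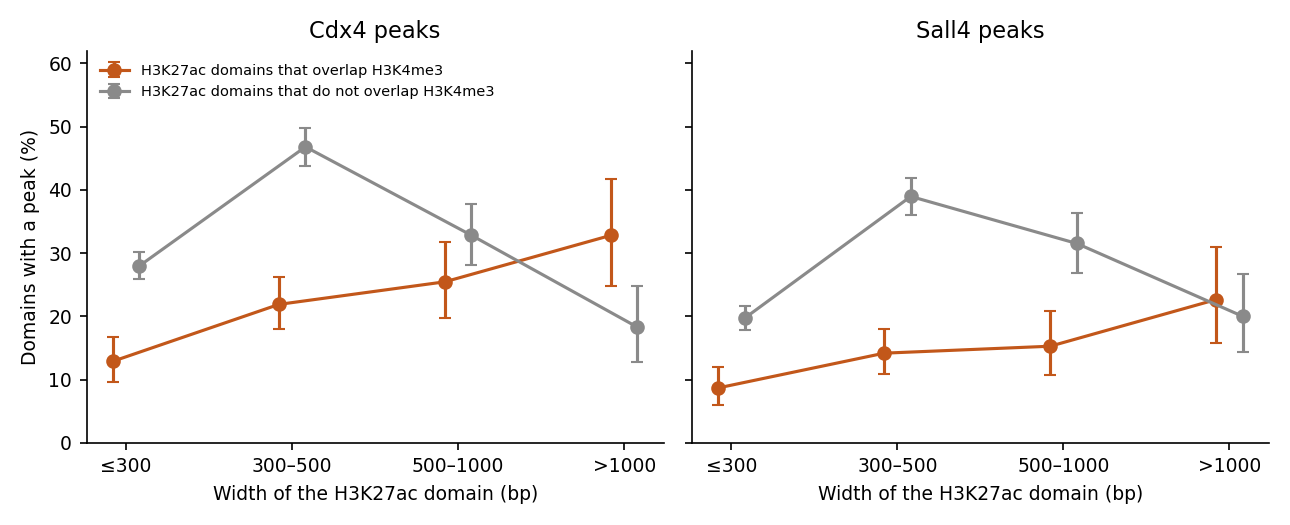
Percent of H3K27ac domains with a Cdx4 peak (left) or a Sall4 peak (right) on the vertical axis, by width of the H3K27ac domain in bp on the horizontal axis. Points are shares with exact 95% intervals, orange for domains that overlapped H3K4me3 and grey for the others. The grey points lie above the orange ones up to 1000 bp, and above 1000 bp Cdx4 has 32.8% in orange and 18.3% in grey.

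The lower shares were found at every level of the deposited H3K27ac score. Overlapping domains had the lower Cdx4 share in each of 4 equal groups by H3K27ac score, from 11.0% against 21.4% in the bottom group to 26.5% against 37.3% in the top one. The Sall4 shares were 10.0% against 18.3% in the bottom group and 18.5% against 36.8% in the top group. In these 4 groups the intervals of the difference excluded 0 for both factors.

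Domains nested in H3K4me3 and domains crossing an end of it did not differ in factor content beyond counting error. Cdx4 peaks were in 20.9% of domains nested in H3K4me3 and 18.8% of those crossing an end, a difference of 2.12 points (-3.54 to 7.27). Sall4 peaks were in 12.3% and 15.3%, a difference of -2.95 points (-8.07 to 1.57). In domains that held H3K4me3 within them the shares were 24.7% and 14.8%, with wide exact intervals (15.8 to 35.5% and 7.90 to 24.4%), and the difference of this or the rarer layouts from the others was not tested. By the width of the H3K4me3 partner, Cdx4 shares ran from 14.3% (exact interval 9.63 to 20.1%) for partners up to 500 bp to 24.1% (19.7 to 28.9%) between 1000 and 1500 bp.

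H3K27ac domains that only came close to H3K4me3 had factor shares near those of the overlapping ones. Among the 250 others within 1000 bp of H3K4me3, 16.4% held Cdx4 and 17.2% held Sall4, against 35.3% and 27.9% of the 3223 lying farther away or on a sequence without H3K4me3. Near domains thus differed by -18.9 points for Cdx4 (-23.3 to -13.6) and by -10.7 points for Sall4 (-15.2 to -5.31). Restricted to domains up to 500 bp wide they were -21.3 points (-26.1 to -15.2) and -13.8 points (-18.4 to -7.81). Overlapping domains differed from these near neighbours by 4.38 points in the Cdx4 share (-1.19 to 9.15) and by -3.70 points in the Sall4 share (-9.20 to 0.980), so that both intervals included 0.

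Within the H3K4me3 partners, the factor peaks were concentrated on the acetylated stretch. The overlapping domains made up 41.3% of the bases of their partners, but 236 of the 245 Cdx4 peaks that overlapped a partner (96.3%, exact interval 93.1 to 98.3%) also overlapped the acetylated domain. For Sall4 it was 138 of 168 (82.1%, 75.5 to 87.6%). Counted by peak centres, sequence with both marks had 0.407 Cdx4 centres per kb (215 centres in 529 kb), and the unacetylated rest of the same H3K4me3 domains had 0.0186 per kb (14 in 753 kb). The ratio was 21.9 (exact conditional binomial interval 12.8 to 40.7). For Sall4 the values were 0.233 and 0.0398 per kb, a ratio of 5.84 (3.89 to 9.02).

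The unacetylated rest of the partners had peaks at a density near that of H3K4me3 domains with no H3K27ac overlap. The latter had 0.0200 Cdx4 and 0.0367 Sall4 centres per kb (275 and 504 centres in 13751 kb). These are more centres than the 215 and 123 in sequence with both marks, over far more sequence. The ratios of the unacetylated rest to these other H3K4me3 domains were 0.929 (0.501 to 1.59) and 1.09 (0.726 to 1.57). Taken as whole domains, 21.2% of partners held Cdx4 and 14.4% held Sall4, against 1.68% and 2.96% of other H3K4me3 domains. Partners exceeded the others by 19.5 points for Cdx4 (17.1 to 22.0) and by 11.4 points for Sall4 (9.40 to 13.6), and they were also the wider domains.

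Compared with other H3K27ac domains, sequence with both marks had fewer peaks per kb when all widths were pooled. Overlapping domains were the wider ones, and these densities were not compared within width groups. Above 1000 bp the share of domains with Cdx4 was higher in overlapping domains (32.8%) than in others (18.3%). Other H3K27ac domains had 0.819 Cdx4 and 0.647 Sall4 centres per kb, so the ratio was 0.497 for Cdx4 (0.428 to 0.574) and 0.359 for Sall4 (0.296 to 0.434). Inside the overlapping domains, the part outside H3K4me3 had 0.198 Cdx4 centres per kb (23 in 116 kb), and the part within had 2.05 times as many (1.33 to 3.31). Among domains that had both parts the ratio was 1.77 (1.08 to 3.01). With the better-scoring part of the Cdx4 list, split at the median, the ratio over all overlapping domains was 1.71. The interval of the latter included 1 (0.977 to 3.23). Overhangs are domain margins, whereas peaks lay toward domain middles, and the share of these ratios due to place was not tested. For Sall4 the parts had 0.233 and 0.224 centres per kb, with a ratio of 1.04 (0.677 to 1.65).

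**Figure D4:**
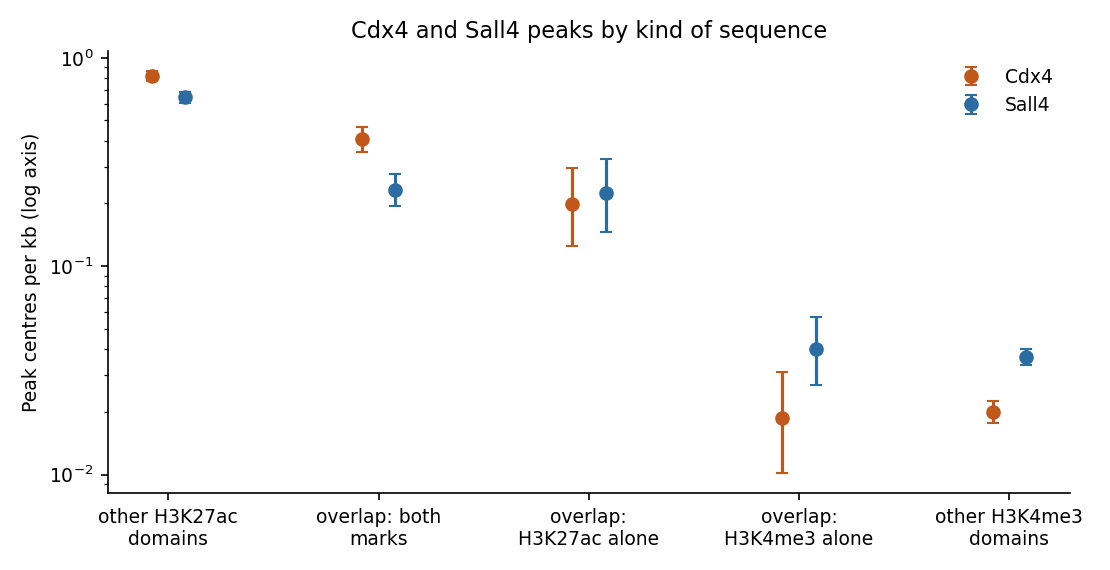
Peak centres per kb (vertical axis, log scale, points with exact Poisson 95% intervals) of Cdx4 (orange) and Sall4 (blue) in 5 kinds of sequence (horizontal axis). Sequence with both marks has 0.407 and 0.233 per kb, the unacetylated rest of the same H3K4me3 domains 0.0186 and 0.0398, and other H3K27ac domains 0.819 and 0.647.

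Cdx4 and Sall4 peaks in overlapping domains scored near the middle of their lists, while those in other H3K27ac domains stood higher. The 252 Cdx4 peaks in overlapping domains had a median score of 84 (quartiles 68.8 and 117, highest 504), and the 1327 in other H3K27ac domains a median of 107 (76 and 158, highest 1028). The median of the whole Cdx4 list was 83, and the median peak in overlapping domains stood at percentile 51.7 of that list. The Cdx4 list was cut into 4 equal parts by score, and the top part contributed 25.0% of the former and 43.3% of the latter, a difference of -18.3 points (-23.9 to -12.0). The 158 Sall4 peaks in overlapping domains had a median score of 87, against 88 for the whole Sall4 list and 104 for the 1068 in other H3K27ac domains, with 21.5% and 37.9% from the top part of the list (difference -16.4 points, -22.8 to -8.80).

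Domains with a peak of each factor were also less frequent among overlapping domains. The share of each factor alone was lower there as well (Cdx4 20.8% and 34.0%, Sall4 13.5% and 27.1%). How much of the lower joint share follows from these single shares was not tested. Peaks from separate libraries do not show that both factors bound the same DNA at once. Both factors had a peak in 96 overlapping domains (8.53%) and 668 others (19.2%), a difference of -10.7 points (-12.7 to -8.52). Cdx4 without Sall4 was found in 138 (12.3%) and 512 (14.7%), and Sall4 without Cdx4 in 56 (4.97%) and 274 (7.89%). Of the Cdx4 peaks in overlapping domains, 97 of 252 (38.5%) overlapped a Sall4 peak, against 686 of 1327 (51.7%) in other H3K27ac domains (difference -13.2 points, -19.6 to -6.50). With the better-scoring part of each peak list, split at the median, the interval of that difference included 0 (-7.13 points, -15.1 to 1.80). Of the Sall4 peaks, 58.2% and 61.5% overlapped a Cdx4 peak (difference -3.29 points, -11.6 to 4.68).

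Most peak centres lay nearer the middle of the acetylated domain than its end, and the distances differed more between overlapping and other domains where domains were wide. In overlapping domains up to 500 bp wide, Cdx4 peak centres were a median of 57.5 bp from the middle (quartiles 30.5 and 91.5 bp), and in other H3K27ac domains of that size 53.5 bp (30.5 and 84.5 bp). Sall4 peak centres were 60.5 and 58.5 bp away. In overlapping domains over 500 bp wide, Cdx4 centres were a median of 213.5 bp from the middle, 41.2% of the way to the end, and in other domains of that size 126.5 bp, 33.5% of the way. For Sall4 the medians were 154.5 bp (35.1%) and 147.5 bp (34.5%). These distances were not tested. The place relative to the H3K4me3 partner was also described without a test. Cdx4 peaks in overlapping domains lay a median of 49.2% of the way from the middle of H3K4me3 to its end (quartiles 29.5 and 75.3%), and Sall4 peaks 49.5% (28.6 and 75.9%).

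Few overlapping domains held more than 1 peak of a factor. Only 17 (1.51%) held 2 or more Cdx4 peaks and 6 (0.533%) 2 or more Sall4 peaks, against 130 (3.74%) and 115 (3.31%) of the others. The most peaks were 4. They lay on chromosome 10 at 40105900 to 40106498 (2 Cdx4 and 2 Sall4 in 599 bp, nested in H3K4me3 of 1999 bp), on chromosome 13 at 23178700 to 23179798 (3 Cdx4 and 1 Sall4, nested in H3K4me3 of 2099 bp) and on chromosome 15 at 19839800 to 19841898 (2 and 2 in 2099 bp).

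The 5 best-scoring Cdx4 peaks in overlapping domains, picked by score, had ranks from 8 to 61 in the whole list. The highest, on chromosome 13 at 43947871 to 43947970, had a score of 504, rank 8 of the whole list, and lay in an acetylated domain of 699 bp nested in H3K4me3 of 2599 bp. It overlapped a Sall4 peak with a score of 127. On chromosome 23 at 35108632 to 35108731 a Cdx4 peak with a score of 428 (rank 28) was in an acetylated domain that held a slightly shorter H3K4me3 domain of 699 bp. The peak on chromosome 9 at 22510804 to 22510903 (score 400, rank 36) had its centre just inside the end of H3K4me3. At chromosome 3, 20688043 to 20688142 (score 454, rank 22), both marks had the same ends, and the centre of the peak lay outside them. All of the 5 best, the fifth being on chromosome 6 at 17071520 to 17071619 (score 361), overlapped a Sall4 peak. Among all Cdx4 peaks in overlapping domains 38.5% did, and Cdx4 peaks of like score elsewhere were not compared.

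Of the 5 best-scoring Sall4 peaks in overlapping domains, 3 overlapped only the edge of the acetylated domain and had their centres outside both marks. The highest stood on chromosome 23 at 37020573 to 37020672 with a score of 293, rank 85 of its list. The other peaks at an edge were its neighbour at 37021480 to 37021579 (score 282) and the peak on chromosome 10 at 17598005 to 17598104 (score 277), which overlapped no Cdx4 peak. The remaining 2 of the 5 best, on chromosome 15 at 19840548 to 19840647 (score 248) and chromosome 16 at 1269662 to 1269761 (score 242), had their centres in H3K4me3 and overlapped Cdx4 peaks with a score of 154 each.

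Overlapping domains were spread over the genome, with the highest share on chromosome 25, where many lay in a few clusters. On the 25 assembled chromosomes, 18.3% to 41.6% of H3K27ac domains overlapped H3K4me3, with a median of 25.2%. Chromosome 25 was the highest, with 69 of 166 (41.6%, exact interval 34.0 to 49.5%), and the next was chromosome 8 with 30.5% (23.7 to 37.9%). The fullest windows of 100 kb on chromosome 25 held 12, 7, 5 and 4 of its overlapping domains. Its share without these windows was not computed. The other 24 chromosomes together had 1005 of 4094 (24.5%). On unplaced scaffolds the share was 52 of 339 (15.3%, 11.7 to 19.6%). Of the other H3K27ac domains, 181 lay on sequences with no H3K4me3 domain, where no overlap was possible. Every assembled chromosome held H3K4me3 domains, so these 181 were all on scaffolds. The scaffold share without them was not computed. Leaving out chromosome 25 gave a Cdx4 difference of -12.6 points and a Sall4 difference of -13.2 points between overlapping and other domains.

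Most windows with an overlapping domain held a single one. On chromosomes, 857 windows of 100 kb held at least 1 overlapping domain, 139 held 2 or more and 14 held 4 or more. The last group held 79 domains, of which 35.4% had a Cdx4 peak and 21.5% a Sall4 peak. Among all overlapping domains the shares were 20.8% and 13.5%, and among all H3K27ac domains 30.7% and 23.8%. Of the 79 domains, 33 were over 1000 bp wide, against 128 of all 1126 overlapping domains. The part of these shares that goes with width was not tested. The fullest windows held 12 each and differed in factor content. On chromosome 23 at 35100001 to 35200000, 9 of the 12 overlapping domains held Cdx4 and 3 held Sall4. On chromosome 25 at 37500001 to 37600000, 1 of 12 held Cdx4 and 0 held Sall4, among 21 H3K27ac and 15 H3K4me3 domains. On chromosome 3 at 20600001 to 20700000, 6 of 7 held Cdx4 and 5 held Sall4. Chromosome 25 also had windows at 33900001 to 34000000 and 35600001 to 35700000 with 7 and 5 overlapping domains, of median width 1099 and 1199 bp. These windows were picked for their counts.

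**Figure D5:**
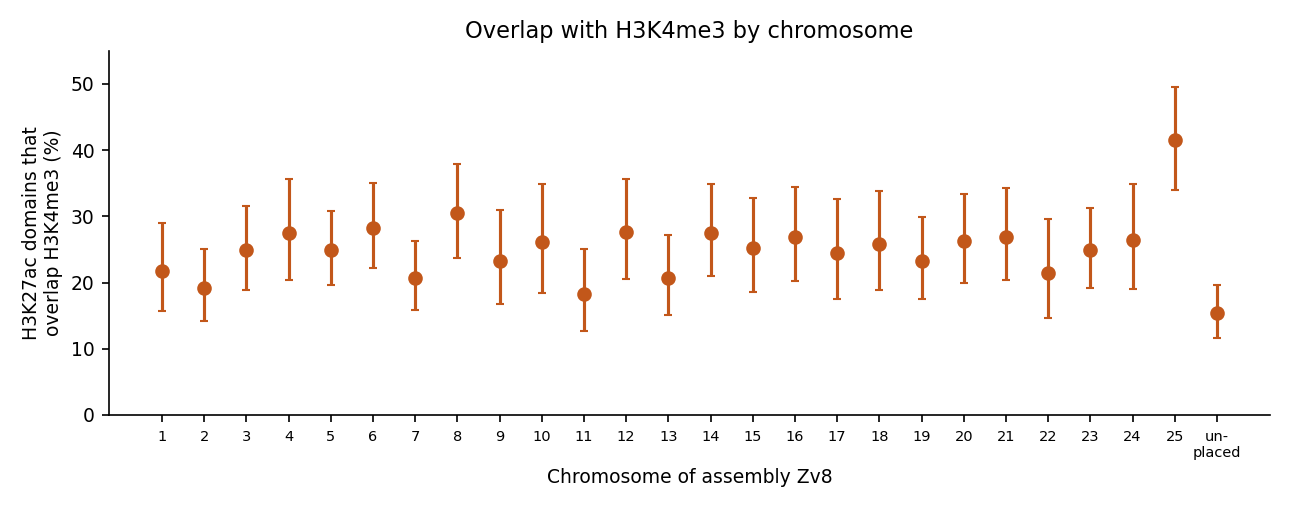
Percent of H3K27ac domains that overlapped H3K4me3 (vertical axis, points with exact 95% intervals) on each chromosome of assembly Zv8 and on unplaced scaffolds (horizontal axis). Chromosome 25 stands highest at 41.6%, and scaffolds lowest at 15.3%. The scaffold share includes 181 H3K27ac domains on scaffolds with no H3K4me3 domain, where no overlap was possible.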

How the data were processed

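Each of 4 ChIP libraries was deposited as 1 list of intervals with a score per interval, with the 3 input libraries not used here. The sources do not say what the authors' deposited score measures, so it ranked intervals within a list only. Per the interval names in the deposited files, Cdx4 and Sall4 peaks came from the GPS caller, and sequence names are those of assembly Zv8. Per the submitters' processing notes, Bowtie 0.12.7 and CASAVA 1.4 were used. For thresholds, filters, depth and the domain caller: not given in the sources used here. Positions were taken as 1-based and inclusive, which makes every peak 100 bp wide.

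Overlap meant at least 1 shared bp. Shares have exact (Clopper-Pearson) intervals, differences of shares Newcombe score intervals, width-averaged differences normal intervals, densities exact Poisson intervals and their ratios exact conditional binomial intervals, all at 95%. A difference was read where its interval excluded 0, or 1 for a ratio. No p-values were computed. The functions were tested on simulated data. Named positions were the 5 widest, most shared, best-scoring and most peak-rich overlapping domains, the 5 nearest the overlap limit on each side, and the 5 best-scoring peaks of each factor. Some of these are left out of the text, and partners with 3 domains, 100 kb windows and chromosome 25 were picked after their counts were seen. The domains and comparisons were chosen with earlier results of these data known. The software was Python 3.11.15 with scipy 1.17.1, pandas 2.3.3, numpy 2.4.6 and, for figures, matplotlib 3.10.9.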

Additional observations from a re-analysis of the deposited data

Results flagged for a closer look

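The difference in factor content between overlapping and other domains was not the same for wide and narrow H3K27ac domains. The difference between overlapping and other domains in the share with a Cdx4 peak was 14.5 points above 1000 bp and -17.6 points up to 500 bp, which are 32.1 points apart (95% interval 21.7 to 42.4). For Sall4 the differences were 2.66 and -15.5 points, 18.1 points apart (8.52 to 28.0). Both intervals combine the Newcombe intervals of the differences and cover counting error over domains of single libraries.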

How the results depend on the processing

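There were 13 results and 18 alternatives, 185 combinations in all. Among the 7 results with an interval test, 98 of 107 combinations kept direction and side of the limit. The exceptions follow, and the cause was not tested. With only H3K27ac domains over 500 bp, the Cdx4 difference was -0.0941 points (-6.02 to 6.03), and its width-averaged form changed sign to 0.788 points. With the better-scoring part of each peak list, split at the median, the Cdx4 ratio of covered to uncovered sequence was 1.71 and the difference in Sall4 overlap of Cdx4 peaks -7.13 points, with intervals that included 1 and 0. The Sall4 ratio, whose interval included 1 throughout, fell below 1 in 5 alternatives. It was 0.921 with at least 50% cover, 0.992 with the better-scoring H3K4me3 domains, 0.902 and 0.940 with H3K27ac domains over and up to 500 bp, and 0.919 with domains that had an uncovered part.

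Values without a test moved as follows. Some moves follow from the setting itself. Fewer domains lower a count, and fewer peaks lower the shares with a peak. A limit of at least 50% cover removes no wholly covered domain, so it raises the wholly covered share. The cause of the other moves was not tested. The number of overlapping domains was 673 with the better-scoring H3K27ac domains and 344 over 500 bp. The wholly covered share was 75.6% with at least 50% cover, 62.9% and 77.5% with the better-scoring H3K27ac and H3K4me3 domains, and 54.1% and 72.0% with domains over and up to 500 bp. Over 500 bp the median widths differed by 87.5 bp. The Cdx4 share was 25.0% with the better-scoring H3K27ac domains, 28.2% over and 17.5% up to 500 bp, and 11.1% with the better-scoring peaks. The Sall4 shares in the same order were 15.8%, 18.0%, 11.5% and 6.57%. Leaving out chromosome 25, dense windows or domains with a score of 0, the use of score groups and the restriction to domains with an uncovered part were alternatives added after seeing the data. Depth is unknown, so a missing domain or peak is not a missing mark or factor.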
